A study of Mus musculus with 18 samples.

Results

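The transcripts of 6 inhibitory receptors of T cells, Tigit, Adora2a, Pdcd1, Btla, Lag3 and Cd160, were followed across 18 libraries of sorted mouse thymocytes. They were found by Entrez Gene ID among the 27179 genes of the count table, and all 6 passed the filter on low counts together with 12798 genes in all. Tigit and Adora2a were selected on their higher level in Hoil ΔCd4 cells, so each comparison with that genotype is a description for these genes, as are the comparisons of Sharpin cpdm with WT, which use the same WT libraries. No test is given for them there. Pdcd1, Btla, Lag3 and Cd160 were tested. All 6 genes were chosen with earlier results of these data known, and the p-values do not allow for that choice.

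RNA was taken from CD69+ thymocytes of 9 mice, sorted into a fraction with low surface MHC class I (MHC I low, the low fraction) and a fraction with high surface MHC class I (MHC I high, the high fraction). Each genotype (WT, Hoil ΔCd4 or Sharpin cpdm) gave 3 mice, which made 6 groups of 3 libraries. CD69 marks thymocytes signalled through the T-cell receptor, and MHC class I on the surface goes up with maturation after positive selection, so the low fraction is the earlier stage. In Hoil ΔCd4 mice, a Cd4-Cre transgene removes a floxed part of Rbck1, which encodes HOIL-1, from cells of the T lineage only. Sharpin cpdm mice carry the spontaneous cpdm allele and lack SHARPIN in every cell, and this allele came from another C57BL substrain and was only partly backcrossed. The ages of the mice are not given in the labels. The sort left out dead cells and cells that carried CD25 or CD44, the gamma-delta T-cell receptor, or surface markers of NK, B, myeloid and antigen-presenting cells. HOIL-1 and SHARPIN are subunits of the linear ubiquitin chain assembly complex, which also holds HOIP and acts in the activation of NF-κB downstream of several receptors.

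Co-inhibitory receptors damp the signal of the T-cell receptor. TIGIT binds CD155 (encoded by Pvr) and CD112 (Nectin2) and competes for them with the activating receptor CD226, PD-1 (Pdcd1) binds PD-L1 (Cd274) and PD-L2 (Pdcd1lg2), BTLA and CD160 both bind HVEM (Tnfrsf14), and LAG-3 resembles CD4 and binds MHC class II and FGL1. The A2A receptor (Adora2a) senses extracellular adenosine and raises cAMP inside the cell. Several of these genes are known to be switched on by T-cell receptor signalling, and PD-1 is found on thymocytes during selection.

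The genes lie, in GRCm38, at chr16:43626137-43665125 (Tigit), chr10:75316877-75334792 (Adora2a), chr1:94038305-94052553 (Pdcd1), chr16:45223705-45252895 (Btla), chr6:124904359-124912434 (Lag3) and chr3:96798763-96829351 (Cd160). The gene body of Tigit, on the minus strand, overlaps that of Zbtb20 on the plus strand, with 0 bases of exon in common. The count files do not state whether strand was used in counting, so reads from Zbtb20 transcripts that keep this stretch cannot be told from Tigit reads. RefSeq promoters of 300 bases (250 before and 50 after the start, GRCm38.p6) were matched for 4 of the 6 genes. The promoters of Tigit and Pdcd1, whose levels ran alike across libraries, and of Btla, which was not higher in Hoil ΔCd4 cells, are shown 5′ to 3′ in the direction of the gene. Capitals mark the NFAT core GGAAA on either strand.
Tigit, chr16:43664135-43664434 (- strand): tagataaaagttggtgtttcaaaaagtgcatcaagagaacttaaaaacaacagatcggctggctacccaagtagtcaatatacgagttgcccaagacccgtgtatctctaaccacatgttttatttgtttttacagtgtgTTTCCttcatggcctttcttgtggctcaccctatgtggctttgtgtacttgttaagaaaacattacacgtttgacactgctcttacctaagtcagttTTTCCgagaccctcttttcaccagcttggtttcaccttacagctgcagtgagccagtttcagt
Pdcd1, chr1:94052504-94052803 (- strand): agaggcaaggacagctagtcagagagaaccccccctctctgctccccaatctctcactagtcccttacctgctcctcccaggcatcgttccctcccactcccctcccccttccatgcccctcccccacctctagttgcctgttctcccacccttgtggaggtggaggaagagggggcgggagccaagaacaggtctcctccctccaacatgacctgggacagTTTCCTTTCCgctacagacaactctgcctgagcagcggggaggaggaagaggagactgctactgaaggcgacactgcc
Btla, chr16:45224087-45224386 (+ strand): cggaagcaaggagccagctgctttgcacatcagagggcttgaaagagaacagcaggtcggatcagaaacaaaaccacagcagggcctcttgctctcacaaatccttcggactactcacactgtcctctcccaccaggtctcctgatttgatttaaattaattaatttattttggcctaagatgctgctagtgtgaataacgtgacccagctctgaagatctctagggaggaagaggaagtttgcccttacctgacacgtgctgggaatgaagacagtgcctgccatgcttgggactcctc
The NFAT core stood at 2 places in the Tigit window, at -110 and -13 from the start, and at 2 places in the Pdcd1 window, at -28 and -23. It was in 0 places of the Btla window. Of 32851 promoters of the same length, 61.3% held this core. The NF-κB motif was found in 4.51% of these promoters, the AP-1 motif TGANTCA in 7.81% and the CRE half-site TGACG in 20.8%, and each had 0 matches in the Tigit, Pdcd1 and Btla windows. Both strands were searched. Of 2 listed Cd160 starts, 1 held a single NFAT core at -145 and a single CRE half-site at -63. A match is a run of letters and not a shown binding site.

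Totals per library were 10577966 to 16266128 counts. Levels are given as CPM, counts relative to the library total scaled by TMM factors, and changes as log2 fold changes of log2 CPM with a prior count of 1, from a limma model over all 18 libraries in which the mouse is a random block. The Benjamini-Hochberg adjustment covers 12798 genes, and a gene is called at an adjusted p under 0.05. Rbck1 averaged 222.5 CPM ± 6.08 (SD, n = 3) in the low fraction of WT and 0.5436 ± 0.256 in low-fraction Hoil ΔCd4 cells, and 266.1 ± 2.28 against 5.724 ± 2.81 in the high fraction. Sharpin averaged 91.31 ± 5.76 CPM in the low fraction of WT and 71.49 ± 4.49 in that of Sharpin cpdm. In the high fraction it averaged 89.7 ± 2.87 against 73.81 ± 4.25. Its transcript was thus still present in Sharpin cpdm cells, and the protein was not measured in these libraries. Xist and Ddx3y put the 3 WT mice as female and each mutant group as 1 female and 2 male mice, so sex moved with genotype. Its part in the differences to WT was not tested by itself. A fit with Xist as a covariate is among the alternative settings, and the calls it changed are given at the end. The high-fraction library of Hoil ΔCd4 mouse 2 held Xist at 64.63 CPM beside Ddx3y at 338.6 CPM, and results were also computed without it. In every group the alpha-beta thymocyte markers summed to 3640 CPM or more, and those of B cells, myeloid cells and thymic epithelium to at most 11.7 CPM.

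Per transcript length (RPKM), Btla and Pdcd1 were the most abundant of the 6 in low-fraction WT cells, at 65.5 ± 4.18 and 62.5 ± 4.38 (SD, n = 3), and these neighbours did not differ beyond their spread. Adora2a followed at 18.5 ± 2.75, Tigit at 10.3 ± 1.59, Cd160 at 5.87 ± 0.9 and Lag3 at 2.96 ± 0.372, each above the next by more than their spread. In high-fraction WT cells the order was Btla (43.6 ± 0.433), Pdcd1 (28.3 ± 3.19), Cd160 (8.36 ± 0.59), Adora2a (7.18 ± 0.713), Tigit (2.57 ± 0.638) and Lag3 (1.77 ± 0.363). The last pair and the pair of Cd160 and Adora2a had overlapping spreads. Tigit rested on 22 to 290 reads per library and Lag3 on 42 to 119, against 588 to 2309 for Pdcd1 and 1419 to 3945 for Btla, so their levels carry more counting error.

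**Figure D1:**
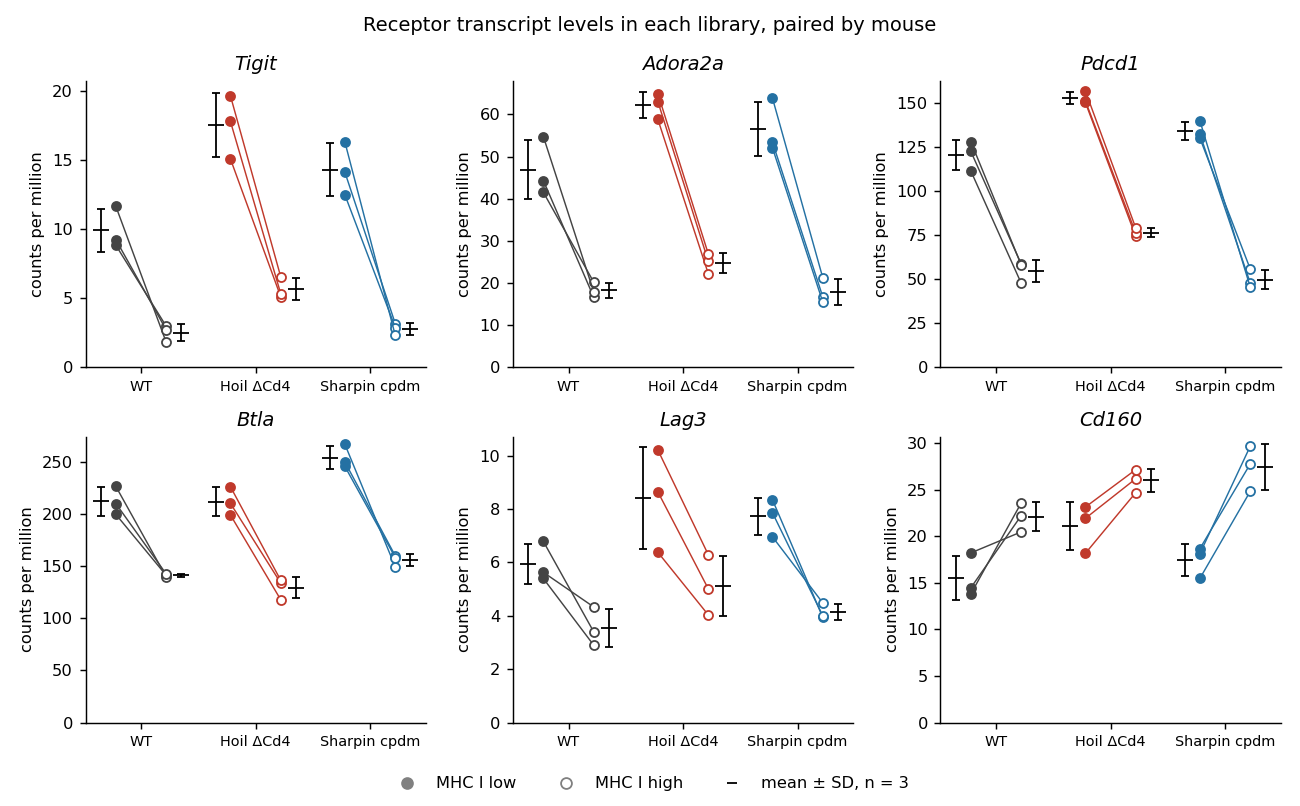
TMM-scaled CPM (vertical axes, from 0) of the 6 receptor genes in each of 18 libraries. Filled circles are MHC I low, open circles MHC I high, a line joins the fractions of 1 mouse, and black marks give the mean ± SD of 3 mice. All 9 lines fall for Tigit, Adora2a, Pdcd1, Btla and Lag3, and all 9 climb for Cd160.

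The first comparison asked how the receptors differ between the earlier and the later fraction. In WT mice 5 of the 6 fell from the low fraction to the high fraction and Cd160 rose, and all 6 passed the test. The WT libraries also entered the choice of Tigit and Adora2a, which sets no direction for this change. Of all genes tested, 26.8% were called lower and 27.5% higher in high-fraction WT cells, so a call by itself sets no gene apart here. In bulk RNA, fewer cells with a transcript and less transcript in each cell cannot be told apart. Tigit stood at 11.65, 8.826 and 9.228 CPM in low-fraction cells of WT mice 1, 2 and 3, and at 1.778, 2.949 and 2.689 CPM in their high-fraction cells. The groups did not overlap, and the log2 fold change was -1.98 (SE 0.151, adjusted p = 1.26e-12, limma), or 0.253 of the low-fraction level. Adora2a went from 44.3, 41.51 and 54.75 to 16.57, 20.14 and 17.86 CPM (-1.39, SE 0.0875, adjusted p = 7.51e-14). Pdcd1 went from 111.3, 122.4 and 127.9 to 47.53, 58.41 and 57.93 CPM (-1.12, SE 0.0605, adjusted p = 4.19e-16). The A2A and PD-1 transcripts thus stood at 0.382 and 0.46 of their low-fraction level, again with no overlap.

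Btla went from 199.5, 226.3 and 209.8 to 141, 139.5 and 142.3 CPM (-0.57, SE 0.049, adjusted p = 2.03e-11). Lag3, the least abundant per length, went from 6.786, 5.628 and 5.396 to 3.395, 4.329 and 2.896 CPM (-0.87, SE 0.15, adjusted p = 1.31e-05). Cd160 moved the other way, from 14.47, 13.81 and 18.22 to 22.23, 23.59 and 20.48 CPM (0.47, SE 0.0903, adjusted p = 6.23e-05). All high-fraction WT libraries were below all low-fraction WT libraries for Btla and Lag3, and above them for Cd160.

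Sharpin cpdm mice gave the same directions, with all 6 called, beside 27.4% of genes called lower and 27.2% called higher. Tigit fell there by 2.30 on the log2 scale (SE 0.159, adjusted p = 1.15e-13), from 14.12, 12.48 and 16.31 to 3.137, 2.86 and 2.284 CPM. Cd160 rose by 0.65 (SE 0.0947, adjusted p = 8.1e-07), from 15.48, 18.68 and 18.15 to 24.84, 27.78 and 29.69 CPM. In Hoil ΔCd4 mice, where 21.7% of genes were called lower and 23.5% higher, the 4 genes tested were all called, Pdcd1 at -1 (SE 0.0743), Btla at -0.73 (SE 0.0603), Lag3 at -0.68 (SE 0.185) and Cd160 at 0.30 (SE 0.111, adjusted p = 0.0298). The call on Cd160 was lost when any 1 of the 3 Hoil ΔCd4 mice was left out. Tigit and Adora2a stood in high-fraction Hoil ΔCd4 cells at 0.327 and 0.401 of their low-fraction level, which is a description.

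Within each mouse, where both fractions come from 1 animal, the ratio of high-fraction to low-fraction CPM was below 1 in 9 of 9 mice for 5 genes. It ranged from 0.14 to 0.337 for Tigit, 0.296 to 0.485 for Adora2a, 0.324 to 0.504 for Pdcd1, 0.472 to 0.769 for Lag3 and 0.559 to 0.707 for Btla. For Cd160 it ranged from 1.12 to 1.71 and was above 1 in all 9 mice. Markers of NK and innate-like T cells moved between the fractions as Cd160 did, with a summed level of 5.16 to 6.27 CPM in the low fraction of WT and 50.3 to 61.7 CPM in high-fraction WT cells. Of that list of 9 genes 8 were detected in both WT fractions, and Ncr1, which defines NK cells, was at 0 in every library. The part of such cells in the rise of Cd160 was not tested.

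**Figure D2:**
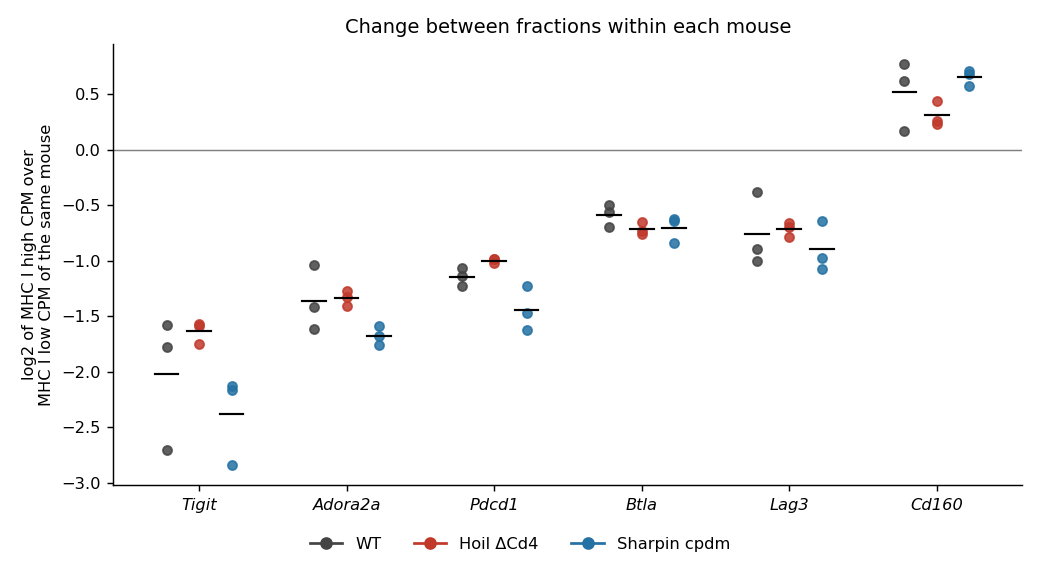
For each receptor gene, the log2 ratio of its CPM in high-fraction to that in low-fraction cells of the same mouse (vertical axis, 0 is no difference), 1 point per mouse, with black bars at the mean of 3 mice per genotype. Tigit had the lowest ratios, down to -2.84, and Cd160 alone lay above 0, from 0.17 to 0.77.

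The second comparison asked what loss of HOIL-1 did in each fraction. Tigit, which was selected on this difference, stood at 15.1, 17.82 and 19.68 CPM in low-fraction Hoil ΔCd4 cells and at 5.086, 5.304 and 6.528 CPM in high-fraction Hoil ΔCd4 cells. Each of these libraries lay above all WT libraries of its fraction. Fitted log2 differences to WT were 0.79 in the low fraction and 1.16 in the high fraction, or 1.73-fold and 2.24-fold. Adora2a stood at 58.82, 63.06 and 64.93 CPM in the low fraction and at 22.17, 25.15 and 26.88 CPM in high-fraction cells, also above every WT library of the fraction. Its log2 differences to WT were 0.42 and 0.49, or 1.34-fold and 1.4-fold. In high-fraction cells of Hoil ΔCd4 mice, both genes remained below their level in any low-fraction WT library.

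Pdcd1, which encodes PD-1, was tested and rose in both fractions. In low-fraction cells of Hoil ΔCd4 mice it stood at 150.2, 151.1 and 156.7 CPM, above all 3 WT libraries (1.27-fold, log2 0.35, SE 0.0806, adjusted p = 0.0248, limma). In high-fraction cells it stood at 74.09, 75.99 and 78.91 CPM, again above all 3 WT libraries (1.39-fold, log2 0.47, SE 0.0724, adjusted p = 0.000111). The call in the high fraction held in all 21 alternative settings. That in the low fraction was lost in 4 of them, without WT mouse 1 (adjusted p up to 0.162 over all settings), without Hoil ΔCd4 mouse 2 or 3, and with no filter on low counts. Pdcd1 was 1 of 4 receptors tested that was called higher in the low fraction, where 0.422% of all genes were called higher and 0.563% lower. In the high fraction, 2 of 4 were called higher, where 3.84% of all genes were called higher and 2.81% lower.

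The other call in the high fraction was Lag3, at 5.011, 6.289 and 4.032 CPM in Hoil ΔCd4 and 3.395, 4.329 and 2.896 CPM in WT cells. These groups overlapped, and the difference (1.56-fold, log2 0.64, SE 0.18, adjusted p = 0.028) was called in 10 of the 21 alternative settings. Leaving out any of WT mouse 1, WT mouse 3 and Hoil ΔCd4 mouse 2 ended the call, with adjusted p-values from 0.0177 to 0.556 over all settings. In low-fraction cells Lag3 stood at 8.641, 10.21 and 6.377 CPM and overlapped WT (log2 0.46, 95% CI 0.05 to 0.86, adjusted p = 0.387).

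Cd160 was at 21.93, 18.17 and 23.14 CPM in low-fraction cells of Hoil ΔCd4 mice, where the difference to WT missed the threshold (log2 0.46, SE 0.12, adjusted p = 0.0546), and 6 of 21 alternative settings called it. In high-fraction cells it was at 26.19, 24.7 and 27.17 CPM, above all 3 WT libraries but not past the test (log2 0.29, 95% CI 0.07 to 0.51, adjusted p = 0.0972). Btla was not higher. It was at 210.1, 199 and 226.1 CPM in low-fraction cells, within the WT range but for 1 library (log2 0.01, 95% CI -0.12 to 0.15, adjusted p = 0.971). In high-fraction cells it was at 133.6, 117.6 and 136.2 CPM, below all WT libraries (log2 -0.14, 95% CI -0.26 to -0.02, adjusted p = 0.139). Of Pdcd1, Btla, Lag3 and Cd160, only Btla had a Hoil ΔCd4 mean that was not above the WT mean in either fraction. Pdcd1 alone was called in both fractions, Lag3 in the high fraction only and Cd160 in neither. Tigit and Adora2a were selected on a higher level in Hoil ΔCd4 cells and are left out of this count. The share of all genes with a mean above WT in both fractions is not given, so the count is a description.

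**Figure D3:**
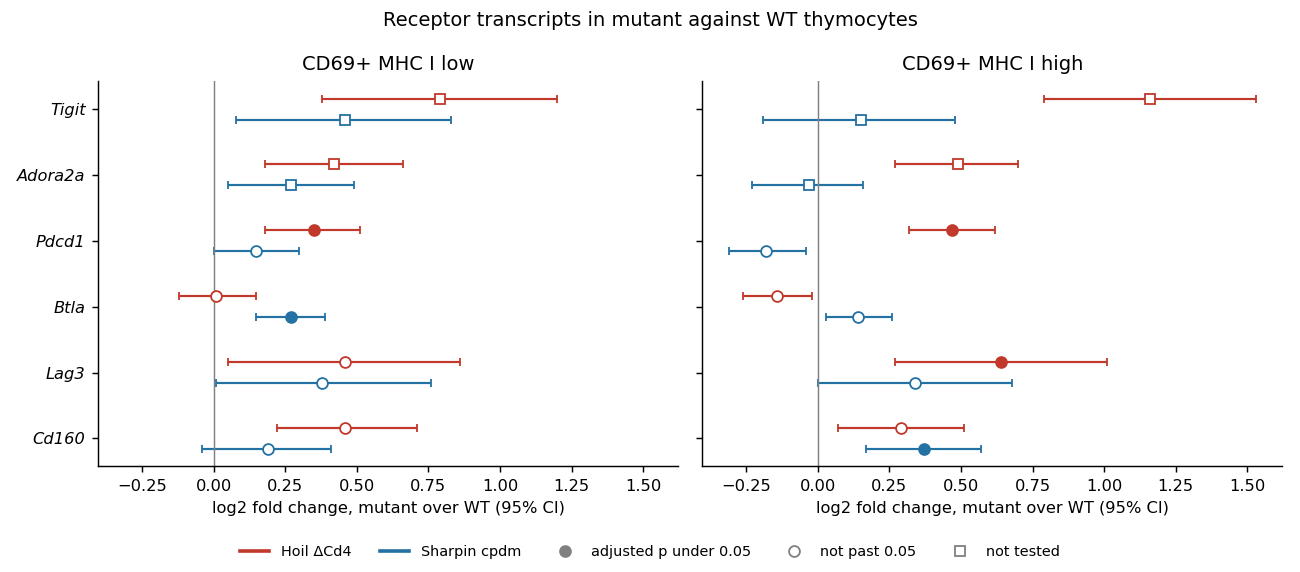
Fitted log2 fold changes of each receptor gene in Hoil ΔCd4 (red) and Sharpin cpdm (blue) over WT, with 95% confidence intervals (horizontal axes), in low-fraction (left) and high-fraction cells (right). Filled circles passed an adjusted p of 0.05, and open circles did not. Squares mark the genes selected on these values. They were not tested, and their intervals do not allow for the selection. Pdcd1 was called in both fractions of Hoil ΔCd4 and in neither of Sharpin cpdm.

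Sharpin cpdm cells were compared with the same WT libraries, to ask what loss of SHARPIN did. Btla rose in low-fraction cells, where it stood at 266.6, 249.6 and 245.4 CPM and above every WT library (1.21-fold, log2 0.27, SE 0.0596, adjusted p = 0.00255), and all 21 alternative settings called it. In high-fraction cells Btla was at 149.1, 159.7 and 158.1 CPM, also above every WT library but not past the test (log2 0.14, adjusted p = 0.0911). Cd160 rose in high-fraction cells, at 24.84, 27.78 and 29.69 CPM (1.29-fold, log2 0.37, SE 0.0992, adjusted p = 0.016), and 13 of 21 settings called it. The calls lost include edgeR and DESeq2, and those without WT mouse 1 or 3 or without Sharpin cpdm mouse 2 or 3 (adjusted p up to 0.353 over all settings). In low-fraction cells Cd160 overlapped WT (log2 0.19, adjusted p = 0.283).

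Pdcd1 stood in low-fraction Sharpin cpdm cells at 129.9, 132.2 and 139.8 CPM (log2 0.15, 95% CI 0 to 0.3, adjusted p = 0.198) and in high-fraction cells at 55.56, 47.61 and 45.24 CPM (log2 -0.18, 95% CI -0.31 to -0.04, adjusted p = 0.0941). The difference in the high fraction was called lower without WT mouse 1 (log2 -0.26, adjusted p = 0.0375) and without Sharpin cpdm mouse 1 (log2 -0.25, adjusted p = 0.0201), and in 0 of the other 19 settings, with adjusted p-values up to 0.685. Lag3 stood at 6.96, 8.35 and 7.863 CPM and at 4.481, 3.941 and 3.996 CPM, with log2 differences of 0.38 and 0.34 (adjusted p = 0.172 and 0.217). Thus 1 of 4 receptors tested was called higher in each fraction, where 5.31% of all genes were called higher and 6.92% lower in the low fraction, and 4.15% and 4.47% in the high fraction. Tigit and Adora2a, as a description, were above WT in low-fraction cells (log2 0.46 and 0.27), Tigit without overlap. In high-fraction cells both overlapped WT, at 3.137, 2.86 and 2.284 CPM for Tigit and 21.19, 16.65 and 15.41 CPM for Adora2a (log2 0.15 and -0.03).

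The mutants were also compared with each other, a difference of means that holds no WT library, although WT libraries enter the estimate of the spread. In high-fraction cells Pdcd1 was 1.57-fold higher in Hoil ΔCd4 than in Sharpin cpdm (log2 0.65, SE 0.0733, adjusted p = 5e-07), called in all 21 settings. Btla was lower in Hoil ΔCd4 in the low fraction (log2 -0.26, SE 0.0672, adjusted p = 0.0125) and in high-fraction cells (log2 -0.29, SE 0.0595, adjusted p = 0.0023), with no overlap in either. Without Hoil ΔCd4 mouse 2 the Btla calls were lost in both fractions, and in the low fraction also without Hoil ΔCd4 mouse 1 or Sharpin cpdm mouse 1 (highest adjusted p = 0.0655 in the low fraction and 0.0788 in the high fraction). In the low fraction Pdcd1 differed by log2 0.20 (95% CI 0.03 to 0.37, adjusted p = 0.128). This makes 1 of 4 receptors called in the low fraction, where 9.48% of all genes were called in either direction, and 2 of 4 in the high fraction, where 6.73% were. Tigit and Adora2a stood 2.02-fold and 1.43-fold above Sharpin cpdm in high-fraction cells of Hoil ΔCd4 mice, as a description, without overlap.

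Whether the change between fractions itself differed from that in WT was tested as an interaction. For Hoil ΔCd4, 0 of the 4 receptors tested were called by limma, 0 had an unadjusted p under 0.05, and edgeR and DESeq2 called 0, with 0.398% of all genes called. The log2 differences in change were 0.12 for Pdcd1 (95% CI -0.07 to 0.32), -0.16 for Btla (-0.31 to 0), 0.18 for Lag3 and -0.17 for Cd160. For Sharpin cpdm, 1 of the 4 was called, with 3.13% of all genes called. Pdcd1 fell further between the fractions in Sharpin cpdm than in WT mice, by 0.32 on the log2 scale (SE 0.0876, adjusted p = 0.0362). This call was lost in 11 of 21 settings, including those without WT mouse 2 or 3 and without Sharpin cpdm mouse 2 or 3 (adjusted p from 0.0138 to 0.286). It was lost both without a replicate block and with each mouse as a fixed block. That setting is named the fixed replicate block, and in comparisons between genotypes it used the mouse number instead. Tigit and Adora2a gave differences of -0.31 and -0.30 there, as a description.

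Stage markers moved with genotype in high-fraction cells. The summed level of 4 genes listed as markers of the CD4+ CD8+ stage (Rag1, Rag2, Ptcra, Dntt) was 175.3, 193.1 and 173.8 CPM in the 3 WT libraries of that fraction. It was 233.4, 383.8 and 372.9 CPM in those of Hoil ΔCd4 and 200.9, 279.2 and 245.9 CPM in those of Sharpin cpdm, and 4 of 4 were called higher in Hoil ΔCd4 and 2 of 4 in Sharpin cpdm. Between the WT fractions, Rag1 and Rag2 fell, Ptcra rose and Dntt was not called. In the mutants these genes did not mark the earlier fraction. Ptcra and Dntt were called higher in the high fraction of Hoil ΔCd4, and Rag2, Ptcra and Dntt in that of Sharpin cpdm, with 0 called lower in either. The sum of 4 markers of mature cells (Ccr7, Klf2, S1pr1, Il7r) was 910.8 to 976.1 CPM in high-fraction WT cells and 779.7 to 825.5 CPM in high-fraction Hoil ΔCd4 cells, with Il7r called lower. Il7r also fell from the low to the high fraction in WT, where the other 3 rose. Tigit, Adora2a, Pdcd1, Btla and Lag3 are higher in the earlier fraction. Of these, Btla was not higher than WT in high-fraction Hoil ΔCd4 cells (log2 -0.14, adjusted p = 0.139, limma). The part of stage in the level of these genes in high-fraction Hoil ΔCd4 cells was not tested. Of the high-fraction Hoil ΔCd4 libraries, that of mouse 1 had the lowest sum of the CD4+ CD8+ stage genes and also the lowest Pdcd1 (74.09 CPM), Tigit (5.086 CPM) and Adora2a (22.17 CPM), while Lag3 was lowest in mouse 3. In Sharpin cpdm the high-fraction library of mouse 1 had the lowest sum (200.9 CPM) and the highest Pdcd1 (55.56 CPM), Tigit (3.137 CPM), Adora2a (21.19 CPM) and Lag3 (4.481 CPM). In high-fraction Hoil ΔCd4 cells the SD relative to the mean was 3.18% for Pdcd1, 13.8% for Tigit and 9.64% for Adora2a. Counting error alone gives 3.27%, 12.1% and 5.76%. These orders of 3 libraries are a description, and their relation to stage was not tested. In low-fraction cells the CD4+ CD8+ stage genes had a median log2 difference of 0.28 in Hoil ΔCd4 with no call (summed 274.3 to 318.2 CPM, against 252.2 to 268.7 in WT). Of 5 markers of regulatory T cells (Foxp3, Il2ra, Ikzf2, Ctla4, Tnfrsf18), 2 were called lower and 0 higher in each fraction of Hoil ΔCd4, Il2ra (log2 -1.34 and -1.10) and Tnfrsf18 (-0.39 and -0.40). In Sharpin cpdm, Il2ra and Ikzf2 were called lower in both fractions and Tnfrsf18 in the high fraction. Foxp3, which defines these cells, averaged at most 4.957 CPM in any group and was not called against WT (log2 0.31 and -0.54 in the fractions of Hoil ΔCd4). The list summed to 875.8 to 1084 CPM in low-fraction WT cells and 1002 to 1130 CPM in those of Hoil ΔCd4, and to 609.3 to 706.9 and 499.5 to 637.9 CPM in the high fraction, most of it Ikzf2. The part of such cells in the receptor levels was not tested. Of 3 gamma-delta T-cell genes matched, 3 were called higher in high-fraction Hoil ΔCd4 cells, with a sum of 40.5 to 54 CPM against 26.9 to 34.4 CPM in WT. Sharpin cpdm had Sox13 and Blk called higher in the high fraction (sum 30.9 to 37.3 CPM) and Sox13 in the low fraction (33.5 to 48.8 CPM). In the low fraction the sum was 34.2 to 39.5 CPM in Hoil ΔCd4, with 0 called, and 22.5 to 31.6 CPM in WT. The part of gamma-delta T cells in the receptor levels was not tested.

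**Figure D4:**
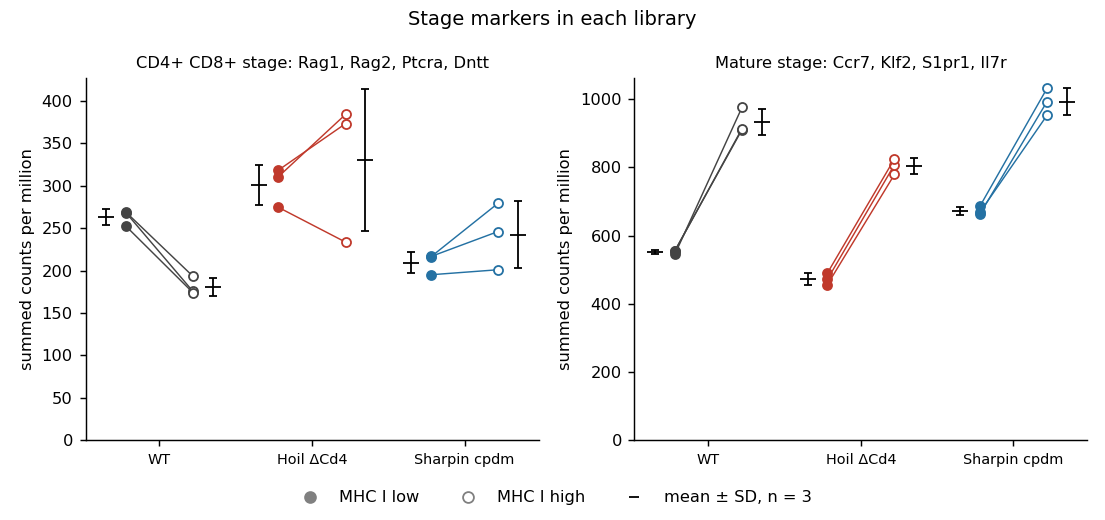
Summed CPM (vertical axes, from 0) of 4 markers of the CD4+ CD8+ stage (left) and 4 markers of mature thymocytes (right) in each of 18 libraries, drawn as in the plot of receptor levels, with mean ± SD of 3 mice. In high-fraction cells the markers on the left lay at 173.8 to 193.1 in WT and 233.4 to 383.8 in Hoil ΔCd4.

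Across the 18 libraries, the gene most like Tigit was Pdcd1 (Pearson r of log2 CPM 0.98), followed by Pip5k1b (0.977) and Sf3a1 (0.976). Adora2a was most like Pdcd1, Sec14l1 (both 0.984) and Sf3a1 (0.982), and Pdcd1 most like Adora2a, Rnf216 (both 0.984) and Tigit (0.98). All these values include the difference between fractions. Over the 9 libraries of a fraction, r between Tigit and Pdcd1 was 0.79 in the low fraction and 0.93 in the high fraction, and between Adora2a and Pdcd1 0.77 and 0.94. Between Pdcd1 and Btla it was 0.80 over 18 libraries, 0 in the low fraction and -0.81 in the high fraction. Btla was most like Hs3st3b1 (0.972), Pafah1b3 (0.971) and Rexo1 (0.967), Lag3 like Rtn4rl1 (0.933), Shank3 (0.93) and Hdhd3 (0.928), and Cd160 like Dnajc7 (0.91), Trav19 (0.906) and Kif22 (0.896). These are descriptions, since the libraries share mice and genotypes.

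The ligands and partners of the receptors were read from lists of 83 genes in 8 groups, of which 74 were tested. Against WT, 1 of 74 was called higher and 2 lower in low-fraction Hoil ΔCd4 cells (median log2 fold change 0.02), 2 and 8 in the high fraction of Hoil ΔCd4 (-0.01), 6 and 11 in the low fraction of Sharpin cpdm (0.01), and 4 and 6 in high-fraction Sharpin cpdm cells (0.02), and the median over all genes was within 0.0084 of 0 in each. As a share, 10.8% of the lists were called lower in the high fraction of Hoil ΔCd4, against the 2.81% of all genes given above, and 14.9% in the low fraction of Sharpin cpdm, against 6.92%. The lists were chosen with earlier results of these data known, so these shares are descriptions.

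Among 10 ligands tested, 1 to 3 were called lower in each comparison with WT, with medians from -0.03 to -0.18, and no call was in the other direction. Cd274, which encodes the PD-1 ligand PD-L1, stood at 129, 128.2 and 134.7 CPM in low-fraction WT cells and 99.63, 94.55 and 89.76 CPM in low-fraction Hoil ΔCd4 cells (log2 -0.47, SE 0.0832, adjusted p = 0.0013). In high-fraction cells it stood at 70.64, 71.59 and 69.93 against 65.21, 48.11 and 50.69 CPM (log2 -0.41, SE 0.0747, adjusted p = 0.000886), and neither pair of groups overlapped. In Hoil ΔCd4 cells, therefore, the transcript of PD-1 was higher and that of PD-L1 lower in the same libraries. In Sharpin cpdm Cd274 fell in the low fraction (log2 -0.35, adjusted p = 0.00267) and missed the threshold in the high fraction (-0.16, adjusted p = 0.161). Pdcd1lg2, for PD-L2, fell in both fractions of Sharpin cpdm (-0.44 and -0.76, adjusted p = 0.0399 and 0.000154) and in high-fraction Hoil ΔCd4 cells (-0.46, adjusted p = 0.042), the last in 8 of 21 settings. Cd200, the ligand of the inhibitory CD200 receptor, fell in the same 3 comparisons (-0.50, -0.55 and -0.33). Its call in Hoil ΔCd4 held in 11 of 21 settings.

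Pvr, for the TIGIT ligand CD155, averaged 94.76 CPM in the low fraction of WT and 81.26 in low-fraction Hoil ΔCd4 cells (log2 -0.24, adjusted p = 0.0978). It was not called against WT in the reported fit, and 1 of 21 settings, Xist as a covariate, called this difference. Nectin2 was at most 0.5761 CPM in any library, Fgl1 was at 0 in all 18, and neither was tested. Tnfrsf14, for HVEM, the shared ligand of BTLA and CD160, was not called against WT in any comparison, with log2 differences from -0.24 to 0.11. Lgals3, a further LAG-3 ligand, was at most 3.258 CPM and was not called against WT.

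Of 7 costimulatory receptors, Cd226, the activating rival of TIGIT, stood at 104.7, 91.91 and 96.51 CPM in low-fraction WT cells and 74.74, 73.86 and 69.77 CPM in low-fraction Sharpin cpdm cells (log2 -0.43, SE 0.0609, adjusted p = 1.45e-05). In high-fraction Hoil ΔCd4 cells it also fell, at 111.7, 107.9 and 107.7 against 129.3, 112.5 and 127 CPM (-0.20, adjusted p = 0.0387), called in 8 of 21 settings. Cd96, which also binds CD155, was not called in either mutant. Tnfrsf9 (4-1BB) fell in the high fraction of both mutants (-0.37 in Hoil ΔCd4 and -0.30 in Sharpin cpdm), the latter in 8 of 21 settings. In low-fraction Sharpin cpdm cells Slamf1 fell (-0.22) and Cd2 rose (0.23). Of 9 other co-inhibitory receptors tested, Cd200r1 rose in the high fraction of Hoil ΔCd4 (0.35, adjusted p = 0.0109) and Vsir, for VISTA, in low-fraction Sharpin cpdm cells (0.26, adjusted p = 0.0209). Ctla4, the best-known of these receptors, rose from the low fraction to the high fraction in WT (2.14) and was not called against WT in either mutant. Of 8 phosphatases and adaptors that carry inhibitory signals, Inpp5d and Csk rose in low-fraction Sharpin cpdm cells (0.20 and 0.25), and the list's median was 0.13 and 0.10 in the fractions of Hoil ΔCd4, with no gene called.

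**Figure D5:**
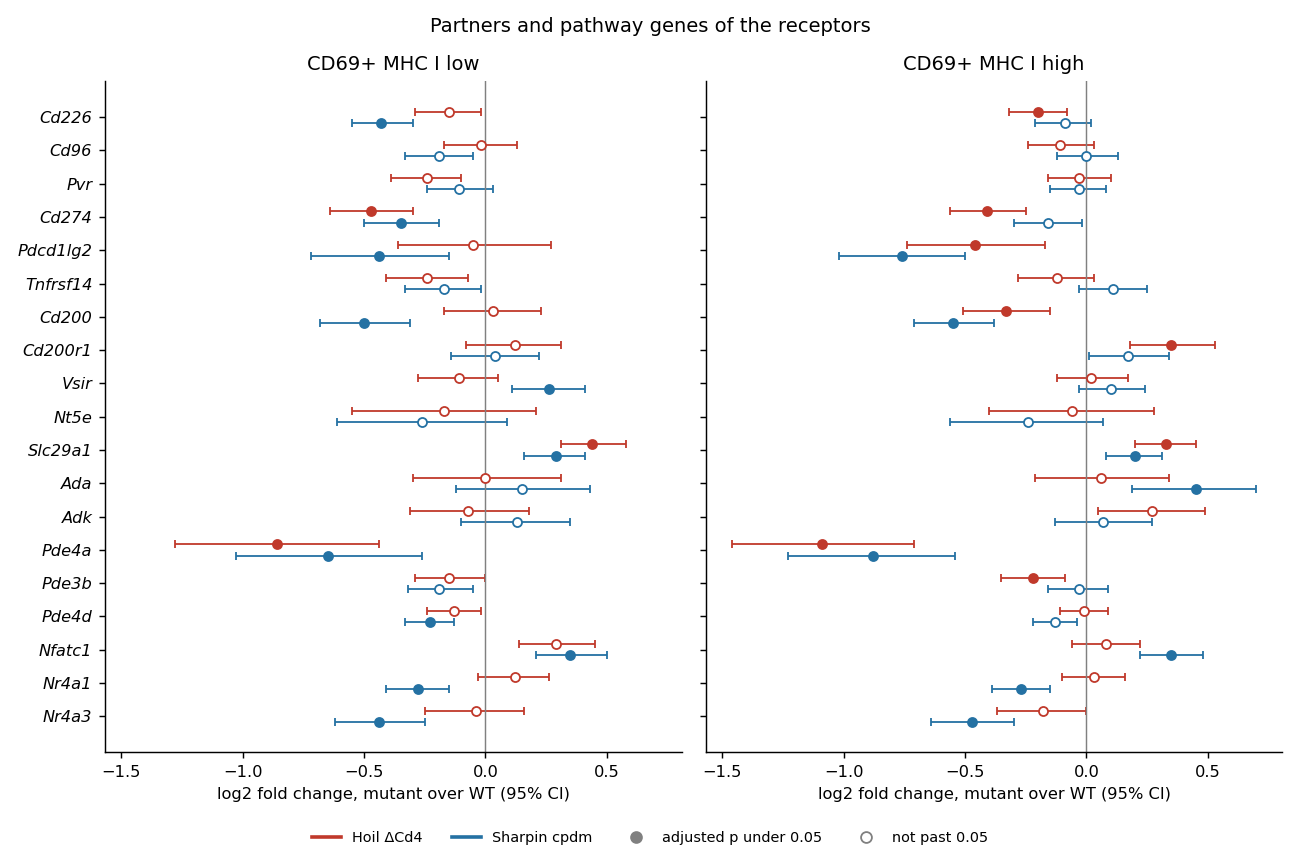
Fitted log2 fold changes over WT with 95% confidence intervals (horizontal axes) of 19 partner and pathway genes in Hoil ΔCd4 (red) and Sharpin cpdm (blue), in low-fraction (left) and high-fraction cells (right). Filled circles passed an adjusted p of 0.05. Slc29a1 lay above 0 and Pde4a below 0, and both were called, in all 4 comparisons.

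Around the A2A receptor, Adora1, Adora2b and Adora3, the other adenosine receptors, were at most 0.7261 CPM in any library, and only Adora3 was tested and was not called. Of 11 genes that supply or remove adenosine, Slc29a1, the equilibrative nucleoside transporter ENT1, stood at 115.8, 126.7 and 126.4 CPM in low-fraction WT cells. In the same fraction it stood at 146, 174.6 and 179.7 CPM with Hoil ΔCd4 and at 149.5, 147.9 and 149.2 CPM with Sharpin cpdm. It rose in both (log2 0.44 and 0.29, SE 0.0674 and 0.0615, adjusted p = 0.000181 and 0.00221), and in both mutants in high-fraction cells (0.33 and 0.20, adjusted p = 0.000941 and 0.024). The smallest of these was called in 12 of 21 settings. Ada, for adenosine deaminase, rose in high-fraction Sharpin cpdm cells (0.45, adjusted p = 0.0231), where mouse 2 lay near WT at 23.45 CPM. Nt5e, for CD73, which makes adenosine, was not called against WT, and Entpd1, for CD39, was at most 0.911 CPM.

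Of 18 genes of cAMP signalling, Pde4a, for a phosphodiesterase that degrades cAMP, was at 5.122, 6.716 and 5.318 CPM in low-fraction WT cells and 3.34, 3.806 and 2.375 CPM in low-fraction Hoil ΔCd4 cells (log2 -0.86, adjusted p = 0.0299). In high-fraction cells it was at 8.891, 8.721 and 9.103 against 5.162, 4.319 and 3.552 CPM (-1.09, SE 0.184, adjusted p = 0.000326). In Sharpin cpdm it fell by 0.65 and 0.88 on the log2 scale (adjusted p = 0.0212 and 0.000807), and the groups did not overlap in any of the 4 comparisons. Pde3b fell in high-fraction Hoil ΔCd4 cells (-0.22, called in 10 of 21 settings), and Pde4d and Creb1 fell in low-fraction Sharpin cpdm cells (-0.23 and -0.18). Adcy7, for an adenylate cyclase, rose in high-fraction Sharpin cpdm cells (0.24).

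Of 10 transcription factors known to act on these receptor genes, Nr4a1, an early response gene of T-cell receptor signalling, averaged 993.5 CPM in low-fraction WT cells, against 1077 CPM for Hoil ΔCd4 and 826.6 CPM for Sharpin cpdm. It fell in both fractions of Sharpin cpdm (-0.28 and -0.27, adjusted p = 0.00377 and 0.00215), as did Nr4a3 (-0.44 and -0.47). In Hoil ΔCd4 neither was called, with Nr4a1 at 0.12 and 0.03. Nfatc1 rose in both fractions of Sharpin cpdm (0.35 in each, adjusted p = 0.00115 and 0.000527). In low-fraction Hoil ΔCd4 cells it missed the threshold (0.29, adjusted p = 0.0566), and 9 of 21 alternative settings called it. Batf fell in low-fraction Sharpin cpdm cells (-0.62, adjusted p = 0.00059). Eomes fell in high-fraction Hoil ΔCd4 cells (-1.14, adjusted p = 0.0392), at 3.451 CPM or less in those groups, and was called in 9 of 20 settings.

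Single mice decided several of these calls on partner genes. Without WT mouse 3, Pdcd1lg2, Pde4a and Adcy7 lost theirs in high-fraction Sharpin cpdm cells (adjusted p = 0.12, 0.057 and 0.156) and Slc29a1 in high-fraction Hoil ΔCd4 cells (adjusted p = 0.103). Nr4a1 lost both of its calls without WT mouse 3 or Sharpin cpdm mouse 2, and Vsir lost its call without either of the same mice. Cd274 lost its call in the high fraction of Hoil ΔCd4 without mouse 2 of that genotype. In the low fraction of Sharpin cpdm, the call on Cd2 was lost without WT mouse 1 or Sharpin cpdm mouse 2, and that on Pde4a without WT mouse 2 or Sharpin cpdm mouse 1 or 2. The call on Ada was lost without any 1 of the WT mice or Sharpin cpdm mouse 3. Any of 3 to 7 mice ended the calls on Creb1, Inpp5d, Slamf1, Cd200r1, Eomes, Pde3b and Tnfrsf9, on Pdcd1lg2 in low-fraction Sharpin cpdm and high-fraction Hoil ΔCd4 cells, on Cd200 and Cd226 in high-fraction Hoil ΔCd4 cells, on Slc29a1 in high-fraction Sharpin cpdm cells and on Pde4a in low-fraction Hoil ΔCd4 cells, with adjusted p-values up to 0.745 over all settings.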

How the data were processed

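RNA from 18 sorted thymocyte libraries was sequenced by the study as single-end reads of 75 bases. The authors aligned these to mm10 with subread, and featureCounts with its inbuilt RefSeq annotation gave a count for each Entrez gene; versions, strand setting and the treatment of multi-mapping reads are not given in the sources used here. The deposited values are raw counts, whole numbers with no normalization and no pooling of replicates, and totals were 10577966 to 16266128 per library. Entrez Gene IDs of 25275 of 27179 genes were found in GRCm38.p6, and the remaining 1904 held 0.655% of all counts.

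The model is that of the study's methods. A gene was kept if 3 or more libraries had it at 0.5 CPM or above, and Y-linked genes, Xist, predicted genes and unmatched IDs were left out. TMM-scaled log2 CPM (prior count 1) were fitted with limma in one model of 6 groups, with sample quality weights, the mouse as a random block (correlation 0.224), an abundance trend and robust empirical Bayes, two-sided, with Benjamini-Hochberg adjustment over 12798 genes. Software was limma 3.58.1 and statmod 1.5.0 in R 4.3.3, with edgeR 4.0.16 for scaling and, beside DESeq2 1.42.0, as an alternative test. The fits were tested on simulated data. The fractions of a mouse come from the same animal, and their deviations correlated in all 9 mice (r 0.07 to 0.256). Replicates of a group are separate mice. Likeness between genes is Pearson's r of log2 CPM.

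The 6 genes, the lists of partners, pathway genes and cell markers, and the tests were chosen with earlier results of these data known. Named were the 6 genes, their direct partners, list genes called against WT (up to 4 per list and comparison, by p), and the 3 genes most like each. Alternatives were edgeR, DESeq2, other scaling and prior counts, other filters, no weights, other blocks, only the groups compared, Xist as a covariate and each mouse left out. The library of Hoil ΔCd4 mouse 2 was left out as a choice made after seeing the data. Some cell markers of the lists are not reported here and were left out of the marker sums.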

Additional observations from a re-analysis of the deposited data

Results flagged for a closer look

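The change of Pdcd1 between the fractions differed between Sharpin cpdm and WT mice by the interaction term of the model, with a log2 difference of -0.32 (SE 0.0876, adjusted p = 0.0362, limma over 12798 genes). The ratio of MHC I high to MHC I low Pdcd1 within a mouse was 0.324 to 0.428 in 3 of 3 Sharpin cpdm mice and 0.427 to 0.477 in 3 of 3 WT mice, so the lowest WT mouse touched the highest Sharpin cpdm mouse. Of all genes, 3.13% were called in the same comparison. The adjusted p ranged from 0.0138 to 0.286 over 21 alternative settings.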

How the results depend on the processing

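Pdcd1 in Hoil ΔCd4 against WT and against Sharpin cpdm in MHC I high cells, Btla in Sharpin cpdm against WT in MHC I low cells, and the changes between fractions of Pdcd1, Btla and Lag3 in all 3 genotypes and of Tigit and Adora2a where tested kept their direction and their call in 21 of 21 alternatives. The number of receptors called in Hoil ΔCd4 against WT was 1 in MHC I low cells and became 2 with DESeq2, with the fixed replicate block and with Xist as a covariate (Cd160 added in each), 0 with no filter on low counts, and 0 to 2 with a mouse left out. In MHC I high cells it was 2 and became 1, with Lag3 lost, with edgeR, DESeq2, no filter, no weights, the fixed replicate block, only the groups compared, Xist as a covariate or the MHC I high library of Hoil ΔCd4 mouse 2 left out, and 1 to 2 with a mouse left out. In Sharpin cpdm MHC I high cells it was 1 and became 0 with edgeR, DESeq2, no filter or no weights, 2 with Xist as a covariate (Btla added), and 0 to 2 with a mouse left out, where Pdcd1, lower, took the place of Cd160 without WT mouse 1 and was added without Sharpin cpdm mouse 1. Between the mutants it was 1 in MHC I low (0 to 1 with a mouse left out) and 2 in MHC I high (1 to 2, and 1 without that library). The Sharpin cpdm difference in change between fractions was 1 and became 0 with edgeR, DESeq2, no filter, no weights, no replicate block, the fixed replicate block and only the groups compared, and 0 to 1 with a mouse left out. The causes were not tested. Counts of Lag3 (42 to 119) and Tigit (22 to 290) limit the precision of both.

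The random block by mouse is part of the reported fit. With no replicate block Cd160 lost its call between the fractions of Hoil ΔCd4 mice (3 members called in place of 4), and no other member's call changed except the Pdcd1 difference given above. Mouse numbers shared across genotypes mark no common litter or day in the labels, and same-numbered mice of different genotypes correlated by -0.031 to 0.153.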
